A study of Mus musculus with 18 samples.

Results

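The MS2 control eluates of differentiated C2C12 cells were compared with the input RNA of the same cell state. The comparison took 6 of the 18 libraries of the series, 3 eluates and 3 inputs, and covered every row of the miRNA table. Of 2042 names, 1908 of mouse and 134 of human, 1197 had at least 1 read in these 6 libraries, and 221 passed the filter on low values and were tested. C2C12 is a mouse myoblast line, grown in DMEM with 10% FCS, that forms contractile myotubes when serum is withdrawn. Here it was kept for 7 days in 2% HS. In the differentiated MS2 eluates, small RNA was recovered from lysate passed over an RNA that carries MS2 hairpins without the MRTF-A 3′UTR. The differentiated input was RNA of the lysate before capture, taken as 8% (500 ng), while the eluates went into libraries whole. Other libraries used were eluates of an MRTF-A 3′UTR bait from differentiated cells and MS2 control eluates and input from undifferentiated cells, each in 3 libraries. The labels give no genetic change in any group, and the state was read from the titles because the treatment text does not differ between states. The labels do not state whether the 3 libraries of a group are separate cultures. The p-values therefore cover the variation among the libraries sequenced, possibly technical in origin.

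miTRAP immobilises an RNA by its MS2 hairpins, which an amylose-bound coat protein fusion grips, and sequences the miRNAs recovered with it. The MS2-only RNA is the control bait: it shows which small RNAs are recovered with no 3′UTR of interest on the resin. A mature miRNA is cut from one arm of a hairpin, 5p or 3p, loaded into an Argonaute protein, and pairs with its targets mainly through the seed, bases 2 to 8. In skeletal muscle a small set of miRNAs, the myomiRs, rises as myoblasts fuse into myotubes.

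The mature sequences of the names on which the comparison turns are given below from RefSeq (GRCm38.p6), 5′ to 3′, with the seed in capitals. The first 8 are names that led the eluate or rose most against input.
miR-6244: gGGGGCGUggaauuaucgggu
miR-6240: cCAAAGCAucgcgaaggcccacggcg
miR-6241: cACGGCGGcuggaauuccc
miR-615-3p: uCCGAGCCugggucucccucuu
miR-423-3p: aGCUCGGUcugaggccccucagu
miR-690: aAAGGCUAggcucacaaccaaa
miR-5106: aGGUCUGUagcucaguuggcaga
miR-5119: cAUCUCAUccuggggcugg
Next come names that were abundant in input or fell most in the eluate.
miR-21a-5p: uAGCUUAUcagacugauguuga
miR-22-3p: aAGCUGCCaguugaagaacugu
miR-30a-5p: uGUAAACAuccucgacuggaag
miR-25-3p: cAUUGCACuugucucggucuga
miR-362-3p: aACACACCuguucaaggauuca
The last group holds names that share a seed and moved in opposite directions, let-7d-5p with let-7f-5p and miR-222-3p with miR-221-3p, and both arms of the miR-423 and miR-425 hairpins where not yet shown.
let-7d-5p: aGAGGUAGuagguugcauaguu
let-7f-5p: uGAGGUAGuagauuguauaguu
miR-222-3p: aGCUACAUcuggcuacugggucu
miR-221-3p: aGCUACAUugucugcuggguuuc
miR-423-5p: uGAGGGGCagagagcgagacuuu
miR-425-3p: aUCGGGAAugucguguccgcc
miR-425-5p: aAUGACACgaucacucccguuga

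Coordinates of some of these names are given on GRCm38, with host genes from GENCODE vM21. miR-615-3p lies at chr15:103014969-103014990 on the plus strand, in an intron of Hoxc5. miR-423-3p lies at chr11:77078086-77078108 on the minus strand, in an intron of Nsrp1. miR-6244 lies at chr9:52115653-52115673 on the plus strand, over an exon of Zc3h12c that runs the other way. miR-6240 at chr5:114851973-114851998 overlaps no other annotated gene. miR-21a-5p lies at chr11:86584120-86584141 on the minus strand, over an exon of Vmp1, and miR-362-3p at chrX:7241984-7242005 on the minus strand, in an intron of Clcn5. miR-425-3p lies at chr9:108568830-108568850 on the plus strand, over an exon of the long noncoding RNA 4833445I07Rik. miR-690 lies at chr16:28599940-28599961 on the minus strand, in an intron of Fgf12.

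The eluates were shallow. They held 15562 to 23433 reads each, against 314110 to 462847 in the inputs, and 270 to 283 names had a read in an eluate against 724 to 830 in an input. Values are the authors' normalised CPM, in which 1 read was worth 27.1 to 34.3 CPM in the eluates and 1.84 to 2.15 CPM in the inputs. Libraries are called A, B and C after the column suffixes. MS2 library C stood apart from A and B: its normalisation factor was 2.37 against 1.33 and 1.24, human-named reads made up 0.0900% of it against 0.930% and 0.755%, and its 3 leading names took 59.7% of its reads against 79.9% and 78.9%. Between eluates and inputs, the share of the 3 leading names gave an exact two-sided permutation p of 0.1, the smallest that 3 against 3 libraries can give, the human-named share gave 0.2 and the factor 0.7.

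Of the 221 names tested, 33 were higher in the MS2 eluate than in input (14.9%) and 138 were lower (62.4%), by limma on log2(CPM + 10) at an adjusted p under 0.05. All 33 and all 138 had values that did not overlap between the groups. That was counted among called names only, on the values that gave the calls, so it is no separate support. The 15 largest rises and 15 largest falls below were picked among names without overlap, so their separation was set by that choice. For lower names with no MS2 read the lack of overlap means only that each input had a read. The median difference over all names tested was -2.33, or -1.55 with the 34 names that had no MS2 read set at their bound of 3 reads per library. The 33 higher names took 64.7% to 83.6% of MS2 reads, against 8.99% to 12.8% of input reads. Of these names, miR-6244 and miR-615-3p alone took 47.6% to 75.7% of MS2 reads. The 138 lower names took 7.04% to 20.1% of MS2 reads and 75.4% to 80.6% of input reads. These shares come from the values that gave the calls, so they only describe the libraries. Depth limits many of the falls. Of the 138 lower names, 34 had no read in any MS2 library, 36 had 1 to 3 reads in the 3 libraries together, and 51 had at least 10. Of the 34 with no read, 15 were lower than input by a bound above 1-fold, and for the rest no size of the fall can be given.

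The direction of many smaller differences depends on how libraries are scaled. Leaving miR-6244 and miR-615-3p out of the library totals, called reduced totals here, gave 60 higher and 77 lower names and a median of -1.36. TMM factors of the 6 libraries alone gave 31 and 138 with a median of -2.66, and RLE factors 43 and 112 with a median of -1.95. Under all 8 scalings and tests tried, 30 names were higher and 76 lower. Without MS2 library C the counts were 34 higher and 137 lower.

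Of the 8 leading names of the control eluate, 6 were also among the first 23 names of the input, while miR-615-3p and miR-423-3p ranked 122nd and 125th there. miR-6244, a late-registered name, took 45.5%, 43.2% and 33.5% of reads in MS2 libraries A, B and C, against 7.50%, 10.4% and 11.1% in inputs A, B and C. Its level was 341461, 347781 and 140976 CPM in the eluates and 55164, 90293 and 74743 CPM in the inputs, a difference of 1.83 ± 0.44 (SE, limma adjusted p = 0.00867). All 3 eluates lay above all 3 inputs, with library C the lowest of the eluates. On library C alone against the inputs, where 1 eluate gives no spread of its own, the difference was 0.97. Without input library A it was 1.64 (limma adjusted p = 0.0593).

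miR-615-3p, encoded within the HoxC cluster, was the second name of the eluate and only the 122nd of the input. It stood at 226069, 232495 and 59521 CPM in the MS2 eluates, against 174, 199 and 118 CPM in the inputs, and took 24.4 ± 8.91% of eluate reads (SD, n = 3). Every eluate was far above every input, with library C the lowest of the 3 eluates. The difference was 9.75 ± 0.56 (limma adjusted p = 1.49e-05), about 1053-fold on the means, and 10.39 without library C. Its other arm, miR-615-5p, had 0 reads in the eluates and 59 in the inputs.

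miR-6240 was higher in the eluate and miR-6241 was not called. miR-6240 had 30683, 27019 and 50937 CPM in the eluates and 6525, 8335 and 7758 CPM in the inputs (2.21 ± 0.29, limma adjusted p = 0.000567). miR-6241 had 31712, 54107 and 24615 CPM in the eluates and 37985, 58819 and 48623 CPM in the inputs (-0.45 ± 0.35, limma adjusted p = 0.27). For miR-6240 the groups did not overlap, and for miR-6241 they did. With totals that leave out miR-6244 and miR-615-3p, miR-6241 turned to 1.26 (limma adjusted p = 0.0183). miR-6244 and miR-615-3p together took 47.6% to 75.7% of eluate reads and 7.52% to 11.1% of input reads.

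Behind these, miR-423-3p was the strongest riser that is a widely expressed mature miRNA. It had 10659, 8926 and 5362 CPM in the eluates, against 167, 165 and 105 CPM in the inputs (5.71 ± 0.34, limma adjusted p = 1.49e-05), and the groups were far apart. miR-690 had 2623, 2918 and 1706 CPM in the eluates, against 51.4, 47.0 and 71.0 CPM in the inputs (5.17 ± 0.33, limma adjusted p = 2.02e-05). miR-5106 had 697, 584 and 1029 CPM in the eluates and 5.51, 3.76 and 6.45 CPM in the inputs (5.64 ± 0.42, limma adjusted p = 4.12e-05). In all 3 of these the lowest eluate was far above the highest input.

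Several risers were close to absent from input. hsa-miR-6509-3p, a human name in the table, had 3686, 3571 and 298 CPM in the eluates and no read in the inputs. On the mean of the eluates, which libraries A and B carry, that is at least 429-fold higher, from 3 reads per input library. The bound does not hold for library C alone. MS2 library C was far below the other eluates, and the fitted difference, 7.32, was 8.51 without it and 6.71 without library A. It held 226 of the 401 human-named reads of the eluates. miR-5119 had 38 reads in the eluates against 2 in the inputs, at 432, 515 and 271 CPM against 0, 0 and 4.30 CPM (5.16 ± 0.40, limma adjusted p = 5.42e-05). On pooled reads that is 305-fold higher, with a 95% counting interval of 78.7 to 2606. miR-3103-3p had 34 reads against 1, at 133, 652 and 298 CPM in the eluates (4.85 ± 0.58, limma adjusted p = 0.0004), a pooled ratio of 545 with an interval of 91.4 to 22156. In both, every eluate was above every input.

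The hairpins of the miR-129 genes, known mainly from brain, gave 3 more of the 15 largest rises, all on 3p arms. miR-129b-3p had 398, 412 and 271 CPM in the eluates and 20.2, 24.4 and 23.7 CPM in the inputs (3.48 ± 0.40, limma adjusted p = 0.000323). miR-129-2-3p rose by 3.24 ± 0.34 and miR-129-1-3p by 2.97 ± 0.33, from 17 and 14 eluate reads. The 5p arm, miR-129-5p, which lies opposite miR-129b-3p on the other strand, had 0 eluate reads and 43 input reads. The counting's use of strand is not given in the sources used here, so reads of these overlapping names could not be told apart. The other largest rises were those of miR-346-3p (3.98), miR-6396 (3.86), miR-425-3p (3.72), miR-1941-5p (3.55) and miR-6355 (3.19), with 16 to 60 eluate reads each. Of the 33 higher names, 17 had at least 10 reads in every MS2 library.

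**Figure D1:**
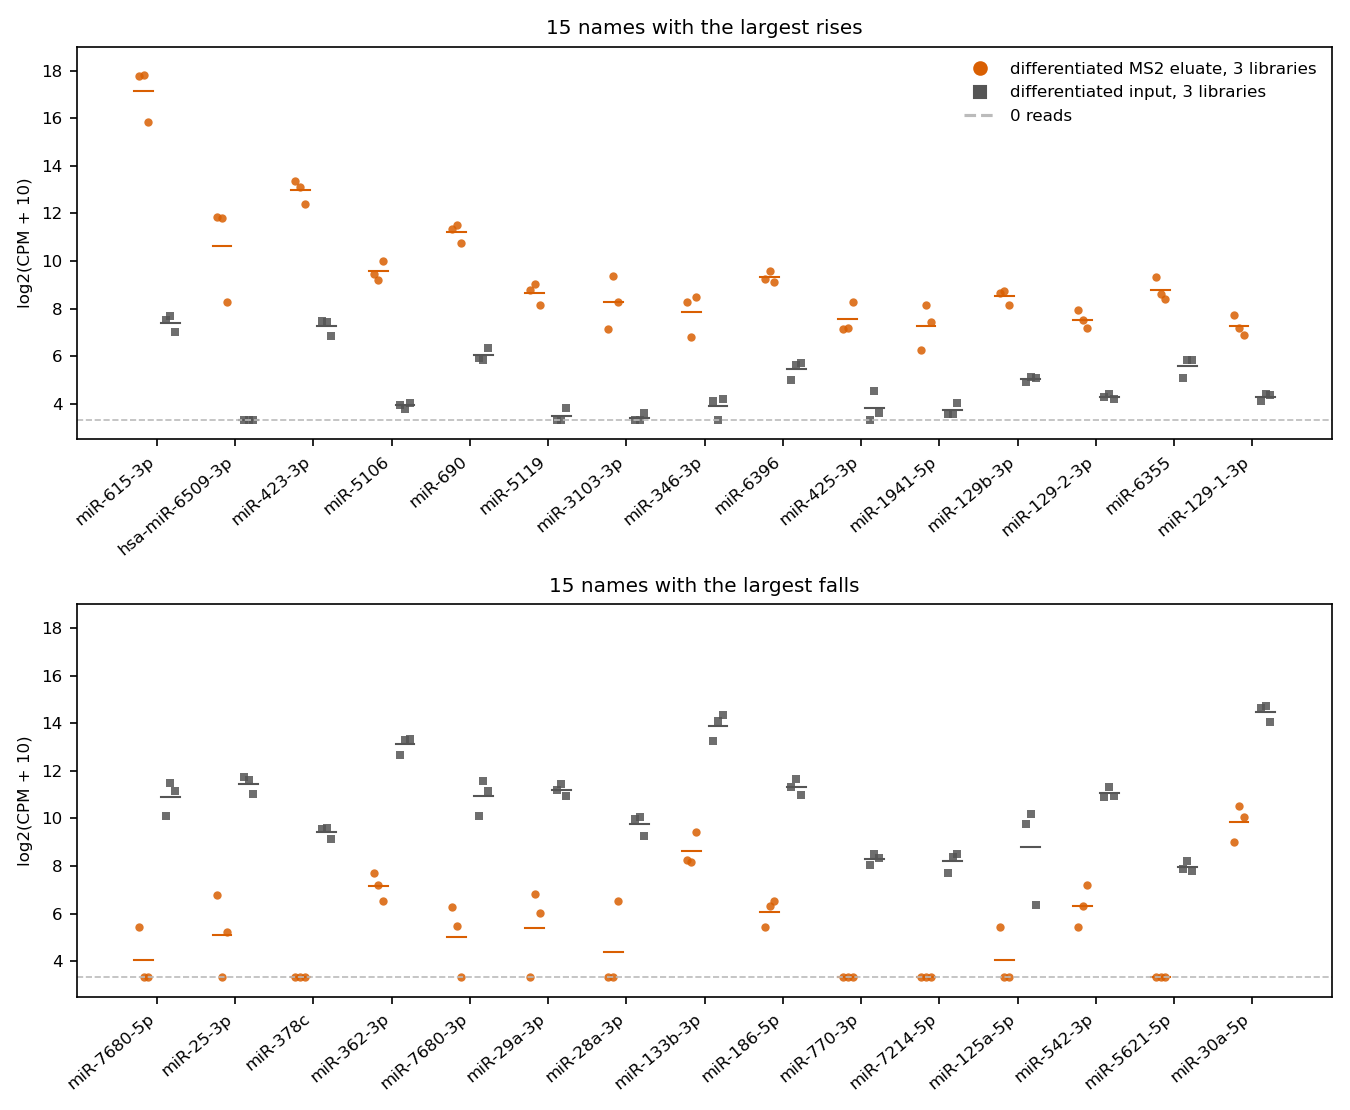
Level of the 15 names with the largest rises (top) and the 15 with the largest falls (bottom) in differentiated MS2 eluate (orange circles, left) and differentiated input (grey squares, right); each point is 1 library on the log2(CPM + 10) scale, lines are means, and the dashed line marks 0 reads. Names were chosen among those whose groups did not overlap, so all 3 eluates lie above or below all 3 inputs by that choice. Eluates of miR-378c, miR-770-3p, miR-7214-5p and miR-5621-5p lie on the line.

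The largest falls included miRNAs that were abundant in input. miR-25-3p, of the miR-106b-25 cluster in Mcm7, had 99.6, 0 and 27.1 CPM in the eluates and 3369, 3151 and 2058 CPM in the inputs (-6.35 ± 0.86, limma adjusted p = 0.000687). miR-362-3p had 199, 137 and 81.2 CPM in the eluates and 6468, 10165 and 10491 CPM in the inputs (-5.97 ± 0.37, limma adjusted p = 2.00e-05). In both, every eluate was far below every input. miR-30a-5p, a guide strand of the miR-30 family, had 498, 1442 and 1056 CPM in the eluates and 25868, 26867 and 17014 CPM in the inputs (-4.63 ± 0.42, limma adjusted p = 0.000115).

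miR-7680-5p and miR-7680-3p fell by 6.89 and 5.93 on the log2 scale, with 1 and 3 eluate reads in all. On pooled reads, miR-7680-5p was 198-fold lower, with a 95% counting interval of 35.5 to 7824, and miR-7680-3p 67.8-fold, with an interval of 23.2 to 329. The 5p and 3p names had nearly equal reads in inputs A, B and C: 589 and 592, 1537 and 1603, and 1049 and 1066. Whether the same reads were counted for both was not tested. miR-29a-3p, known for its action on collagen transcripts, had 5 eluate reads and 3660 input reads (-5.81 ± 0.89, limma adjusted p = 0.00119). These names rest on so few eluate reads that single libraries move them: miR-29a-3p was at -4.78 without MS2 library A and -6.53 without B, and miR-25-3p at -7.19 and -5.46. miR-28a-3p, miR-186-5p and miR-542-3p had 3, 6 and 8 eluate reads, against 1387, 4027 and 3302 input reads, and differences of -5.38, -5.23 and -4.75. For miR-28a-3p the pooled ratio was 28.8-fold lower, with an interval of 9.85 to 140. miR-125a-5p fell by 4.76 ± 1.17 with 1 eluate read, 70.0-fold lower with an interval of 12.5 to 2767. Its inputs were uneven at 870, 1154 and 73.1 CPM, and the difference was -5.96 without input library C, -4.05 without B and -5.46 without MS2 library A.

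4 of the 15 largest falls had no eluate read and are given as bounds. miR-378c, with 740, 772 and 546 CPM in the inputs, was at least 7.25-fold lower in the eluate. miR-770-3p was at least 3.24-fold lower, miR-7214-5p at least 3.09-fold and miR-5621-5p at least 2.53-fold. edgeR called all 34 lower names without an MS2 read, and DESeq2 called 33 of them. Their input reads ran from 74 to 1068.

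Most of the abundant input names were lower in the control eluate. Of the 50 most abundant input names, 42 were lower in the eluate, 2 higher and 6 neither, with a median difference of -2.98, and each had an eluate read. miR-21a-5p, a growth-associated miRNA and the first name of the input, took 0.960 ± 0.416% of eluate reads and 16.7 ± 1.54% of input reads (SD, n = 3 each). Its level was 5213, 6008 and 6066 CPM in the eluates and 135117, 141909 and 103652 CPM in the inputs (-4.45 ± 0.21, limma adjusted p = 9.61e-06). In normalised CPM the 3 eluates were close together and far below the inputs. As shares of reads they were less even, at 157 of 22586, 175 of 23433 and 224 of 15562 reads in MS2 libraries A, B and C.

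miR-22-3p, abundant in striated muscle, had 4184, 6317 and 8097 CPM in the eluates and 59220, 61587 and 45132 CPM in the inputs (-3.19 ± 0.30, limma adjusted p = 0.000121). miR-378a-3p, from an intron of the metabolic coactivator gene Ppargc1b, had 4151, 4291 and 8286 CPM in the eluates and 47407, 53891 and 43199 CPM in the inputs (-3.18 ± 0.31, limma adjusted p = 0.000155). Both were lower in every eluate than in any input. With the difference of all names as baseline, these lie only 0.87 and 0.85 below the median, and miR-21a-5p 2.12 below it.

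**Figure D2:**
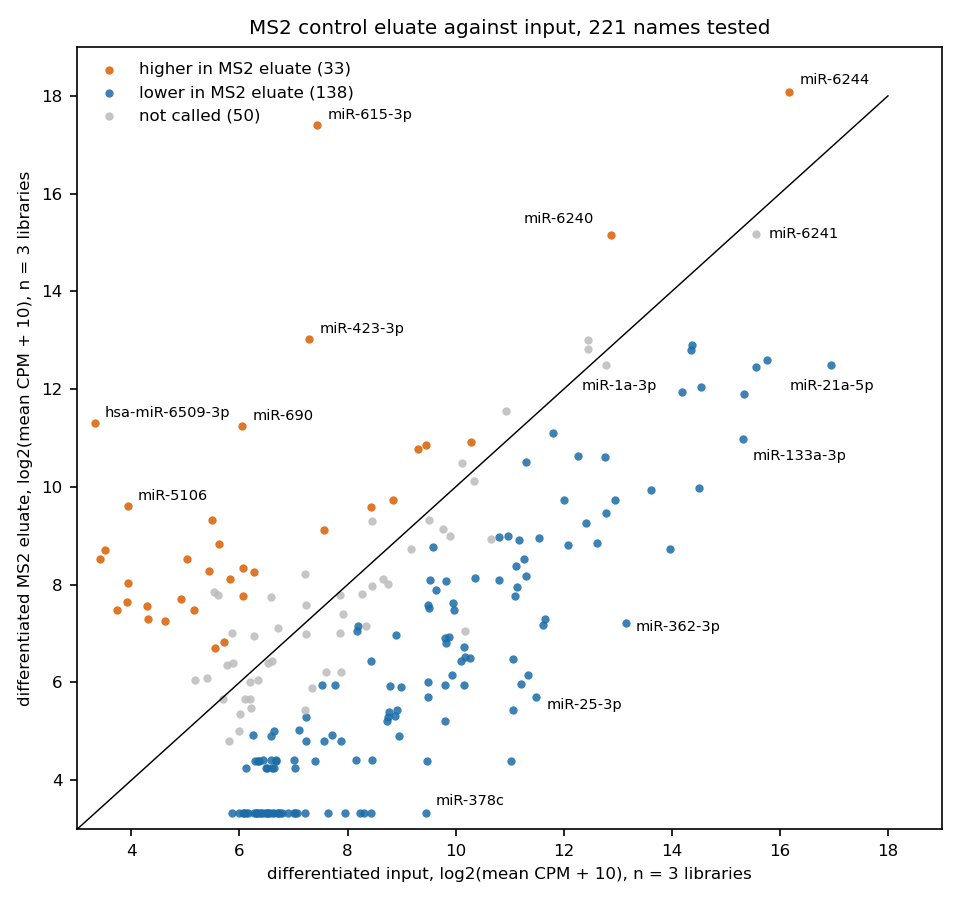
Mean level of each of the 221 names tested in differentiated MS2 eluate (vertical) against differentiated input (horizontal), both as log2(mean CPM + 10) over 3 libraries, with equal levels on the line. The 33 higher names (orange) include miR-615-3p and miR-6244, the 138 lower names (blue) include miR-21a-5p and miR-133a-3p, and the 34 blue points in the bottom row had no eluate read.

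The myomiRs, markers of the labelled state, were present in the input with 12.5% to 16.9% of its reads, against 2.39% to 6.52% of eluate reads. Of 7 tested, 6 were lower in the eluate, against 62.4% of all names, and 1, miR-1a-3p, was not called. With reduced totals 3 were lower and 1 higher. For the level of the myomiRs in input, the number of myotubes and the miRNA per cell cannot be told apart in such bulk RNA. The median difference of the 7 tested was -2.21 (-1.59 with the name without MS2 reads at its bound), near the median of all names. miR-133a-3p, which acts on SRF in mouse muscle, had 1195, 1957 and 2843 CPM in the eluates and 30478, 43409 and 48008 CPM in the inputs (-4.40 ± 0.36, limma adjusted p = 6.85e-05). Its near-copy miR-133b-3p had 299, 275 and 677 CPM in the eluates and 9798, 17412 and 20580 CPM in the inputs (-5.28 ± 0.44, limma adjusted p = 7.31e-05). Both pairs of groups were far apart, though reads of such similar names could have been split between them in counting.

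miR-1a-3p had 4915, 6935 and 5443 CPM in the eluates and 7094, 6447 and 7665 CPM in the inputs (-0.31 ± 0.20, limma adjusted p = 0.201). These groups overlapped, and with totals that leave out the 2 leading names the difference turned to 1.41 (limma adjusted p = 0.00129). miR-206-3p, of the same seed family in mouse, fell by 2.21 ± 0.24 with 26 eluate and 1993 input reads (limma adjusted p = 0.00021). miR-486-5p and miR-3107-5p, which share a locus, differed by -1.59 and -1.48, and with those totals by 0.13 and 0.23. miR-499-5p, from the myosin gene Myh7b, had no eluate read and 291 input reads, at least 2.00-fold lower. miR-208b-3p and miR-208a-3p had 2 and 0 eluate reads, against 61 and 1 input reads, and were not tested.

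Among let-7 names, which restrain growth genes in many tissues, 9 of 11 were lower and 1 was higher, against 62.4% and 14.9% of all names. Their median was -1.98, against -2.33 over all names, and with reduced totals 2 were lower and 3 higher. let-7f-5p had 3420, 4326 and 4901 CPM in the eluates and 21649, 27447 and 22657 CPM in the inputs (-2.51 ± 0.21, limma adjusted p = 7.48e-05). let-7g-5p fell by 3.43 ± 0.44 and let-7j by 2.25 ± 0.35. let-7d-5p went the other way, with 1328, 1614 and 2627 CPM in the eluates and 676, 701 and 682 CPM in the inputs (1.36 ± 0.29, limma adjusted p = 0.00519). Its lowest eluate was above its highest input, and it was also higher without library C and under all 8 scalings and tests.

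All 8 tested names of the miR-17-92 cluster and its paralogs, which promote proliferation, were lower (median -3.41, -3.37 with bounds), against 62.4% of all names. With reduced totals 5 were lower. 2 of them had no eluate read and 5 had 1 to 4. The best measured was miR-92a-3p, with 266, 515 and 569 CPM in the eluates and 7349, 7660 and 3916 CPM in the inputs (-3.79 ± 0.40, limma adjusted p = 0.000207). All 5 miR-30 guides were lower (median -3.72), against 62.4% of all names, and with reduced totals 3 were. Among them miR-30d-5p fell by 3.72 ± 0.25 with 95 eluate and 19448 input reads. In the miR-23, miR-27 and miR-24 clusters 6 of 7 were lower, against 62.4% of all names, and 3 with reduced totals. Their median was -2.61, against -2.33 over all names. miR-27b-3p had 2657, 3536 and 5660 CPM in the eluates and 19740, 19541 and 16810 CPM in the inputs (-2.31 ± 0.30, limma adjusted p = 0.000586).

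Of 5 tested names from the Dnm loci, 1 was higher and 2 lower (median 0.38), against 14.9% and 62.4% of all names. With reduced totals 3 were higher and none of the 5 lower. miR-199a-5p had 830, 755 and 921 CPM in the eluates and 481, 492 and 374 CPM in the inputs (0.89 ± 0.24, limma adjusted p = 0.0128), with no overlap. miR-199a-3p and miR-199b-3p, whose mature sequences are the same, were not called (0.56 ± 0.22 and 0.38 ± 0.22, limma adjusted p = 0.0534 and 0.161), though miR-199a-3p was called without input library B (limma adjusted p = 0.0452). miR-199a-3p ranked 5th by mean share in the eluate and 23rd in input. miR-214-3p and miR-214-5p had 1 eluate read each and were 7.73-fold (interval 1.36 to 308) and 11.8-fold (interval 2.09 to 468) lower on pooled reads.

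Among 4 tested names of the Hox clusters 1 was higher and 2 lower, against 14.9% and 62.4% of all names. The higher one was miR-615-3p, and the lower ones miR-196a-5p (-3.86 ± 0.54) and miR-196b-5p. With reduced totals 1 of the 4 was higher and 1 lower. miR-10a-5p, with 25 eluate reads, was not called (-0.80 ± 0.39, limma adjusted p = 0.0998), but was at -1.14 and called without MS2 library C (limma adjusted p = 0.018). Of 4 proliferation-linked names tested, 2 were higher and 2 lower, against 14.9% and 62.4% of all names. With reduced totals the counts were also 2 and 2. miR-222-3p had 1295, 2506 and 1435 CPM in the eluates and 606, 817 and 449.5 CPM in the inputs (1.45 ± 0.35, limma adjusted p = 0.00926), all eluates above all inputs. Its cluster partner miR-221-3p, with the same seed, had 166, 103 and 135 CPM in the eluates and 3286, 3972 and 2093 CPM in the inputs (-4.41 ± 0.33, limma adjusted p = 4.24e-05), all eluates below all inputs. miR-31-5p was 0.61 ± 0.21 higher (limma adjusted p = 0.0382), but not called without MS2 library B or C, without any 1 of the inputs, or by edgeR (adjusted p = 0.0706).

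Neither of the 2 tested miR-15/16 family names was called, miR-16-5p at 0.74 ± 0.42 and miR-322-5p at -0.19 ± 0.51. Both were called higher with reduced totals, at 2.44 and 1.48, and miR-16-5p also without MS2 library B, at 1.17 (limma adjusted p = 0.00959), with RLE factors and by DESeq2. In the miR-34 family, whose members respond to p53, 1 of 2 tested names was lower, against 62.4% of all names. With reduced totals 1 was higher and none of the 2 lower. miR-34a-5p fell by 1.82 ± 0.46 with 5 eluate reads, a call lost without input library B (limma adjusted p = 0.0604), and miR-34c-5p was not called (0.37 ± 0.28, limma adjusted p = 0.254). Lists for other cell types held both absent and abundant names. miR-142-3p, miR-142-5p, miR-150-5p and miR-223-3p of blood cells, miR-124-3p of neurons and miR-126a-3p of endothelium had 0 reads in all 6 libraries. miR-486-5p, on the blood list and also a myomiR, had 699 eluate and 32658 input reads. The epithelial list summed to 27.1 to 137 CPM in the eluates and 25.7 to 43.2 CPM in the inputs, and none of its names was tested. miR-143-3p, abundant in smooth muscle, was at 3188, 3879 and 4333 CPM in the eluates and 48850, 52760 and 23079 CPM in the inputs (-3.37 ± 0.36, limma adjusted p = 0.000207). miR-128-3p, known from neurons, fell by 2.76 ± 0.29 with 32 eluate reads. miR-145a-5p, with 3 eluate reads, was 4.51-fold lower on pooled reads (interval 1.52 to 22.1) and was not called without any 1 of the inputs. miR-9-5p, with 2 eluate reads, was not called, but was at -2.65 and called without MS2 library A (limma adjusted p = 0.000184).

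Mouse names with numbers of 5000 and above, registered late from deep sequencing, made up 54.5% to 55.5% of eluate reads and 16.6% to 22.7% of input reads. Of 32 tested, 8 were higher and 12 lower, against 14.9% and 62.4% of all names, with a median of -1.10 (-0.46 with bounds). With reduced totals 14 were higher and 8 lower. Besides miR-6244 and miR-6240 the higher ones were miR-5106, miR-5119, miR-6355, miR-6396, miR-6898-3p and miR-6909-5p. Those lower included miR-6239 (-3.34 ± 0.40, 85 eluate and 12279 input reads) and miR-6236 (-3.68 ± 0.51). Of 2 human names tested, hsa-miR-6509-3p was higher and hsa-miR-5684 was called lower with no eluate read. hsa-miR-5684 stood in the inputs at 60.6, 60.1 and 893 CPM, and the mean eluate floor of 3 reads was 94.6 CPM, so the size of the fall cannot be given against input libraries A and B. Without input library C the fitted difference was -2.81, against -4.04 with it.

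**Figure D3:**
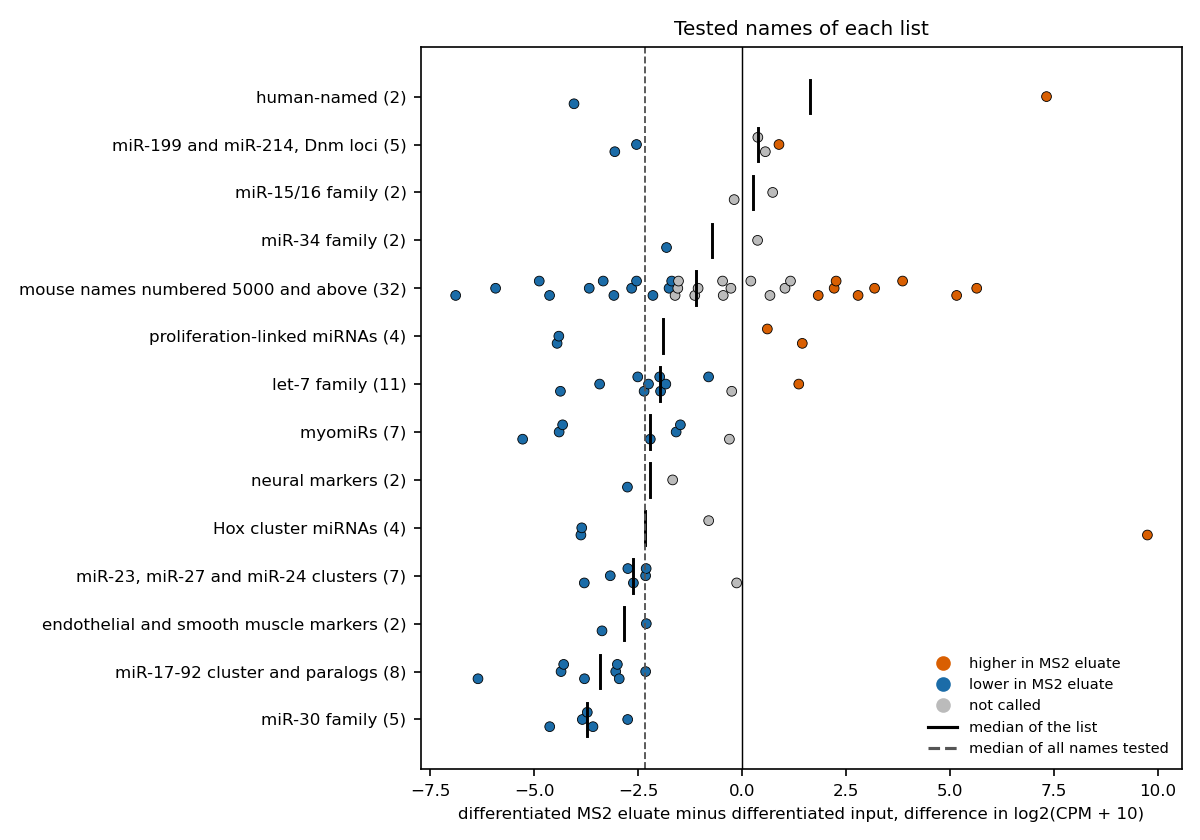
Difference in log2(CPM + 10) between differentiated MS2 eluate and differentiated input for each tested name of the lists with 2 or more tested names (number in brackets); orange names were higher, blue lower and grey not called, black bars are list medians and the dashed line is the median of all names tested, -2.33. All miR-30 and miR-17-92 names lie below 0, while miR-615-3p of the Hox list lies at 9.75.

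A ratio of both arms of 1 hairpin within a library depends on the scaling of that library only through the added 10 CPM. Of 30 hairpins with both arms tested, the 3p to 5p ratio was higher in the eluate for 6 (20%) and lower for 9 (30%), by limma on log2((3p CPM + 10)/(5p CPM + 10)). Of these 15, 9 had at least 20 eluate reads over both arms and 1, miR-106b, had none, where the eluate ratio is set by the pseudocount alone. In miR-425, miR-770, miR-139 and miR-361 1 arm had no eluate read, so the size of the change depends on the pseudocount: with 0.5 read added in place of 10 CPM, miR-425 was at 8.61 and miR-361 at 4.52.

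In the miR-140 hairpin, best known from cartilage, both arms had eluate reads and their balance differed from input. miR-140-3p held 47.4% of the hairpin's reads in the eluates, 27 reads to 30 of the 5p arm, and 97.8% in the inputs, 3953 to 88. The log2 ratio of the miR-140 arms was 0, -0.65 and 0 in the eluates, against 5.65, 5.18 and 4.84 in the inputs, so no eluate came near an input (-5.44 ± 0.46, limma adjusted p = 5.84e-05). miR-140-5p itself was higher in the eluate, at 365, 275 and 298 CPM against 45.9, 77.0 and 47.3 CPM (2.29 ± 0.40, limma adjusted p = 0.00234), while miR-140-3p fell by 3.14 ± 0.39.

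miR-425 turned round. miR-425-3p had 19 eluate reads and miR-425-5p none, against 8 and 169 in the inputs (ratio change 7.30 ± 0.51, limma adjusted p = 4.20e-05). In miR-192 the 3p arm had 20 eluate reads against 3 of the 5p arm, and 56 against 650 in the inputs (5.72 ± 1.32, limma adjusted p = 0.00859). Its eluate ratios were uneven, and the change was 4.22 without MS2 library B and 6.98 without C, which had 2 reads of each arm. The 2 arms of miR-423 leaned the same way in both groups, but more so in the eluate: 779 reads of miR-423-3p to 19 of miR-423-5p there, and 228 to 60 in input (3.87 ± 0.58, limma adjusted p = 0.00104). In none of these 3 hairpins did the eluate and input ratios overlap.

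Toward the 5p arm, miR-770 in Meg3 had 0 3p and 9 5p eluate reads, against 472 and 57 in the inputs (-6.12 ± 0.53, limma adjusted p = 5.84e-05). let-7d had 2 and 184 eluate reads, against 278 and 1058 (-4.71 ± 0.65, limma adjusted p = 0.00068). miR-139 had 0 and 10, against 146 and 66, and miR-322 had 2 and 21, against 346 and 345, with changes of -4.37 ± 0.53 and -3.47 ± 0.73. miR-378a, with the most reads of these, was at 93.1% 3p in the eluates, against 98.8% in the inputs (-2.66 ± 0.31, limma adjusted p = 0.000323). The remaining calls were miR-361 (3.83), miR-532 (2.45) and miR-30a (2.02) toward 3p and miR-27a (-2.19), miR-151 (-2.10) and miR-106b (-0.86) toward 5p. miR-532 was not called without MS2 library A or C or without any 1 of the inputs, and miR-361 not without MS2 library A or input library C.

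**Figure D4:**
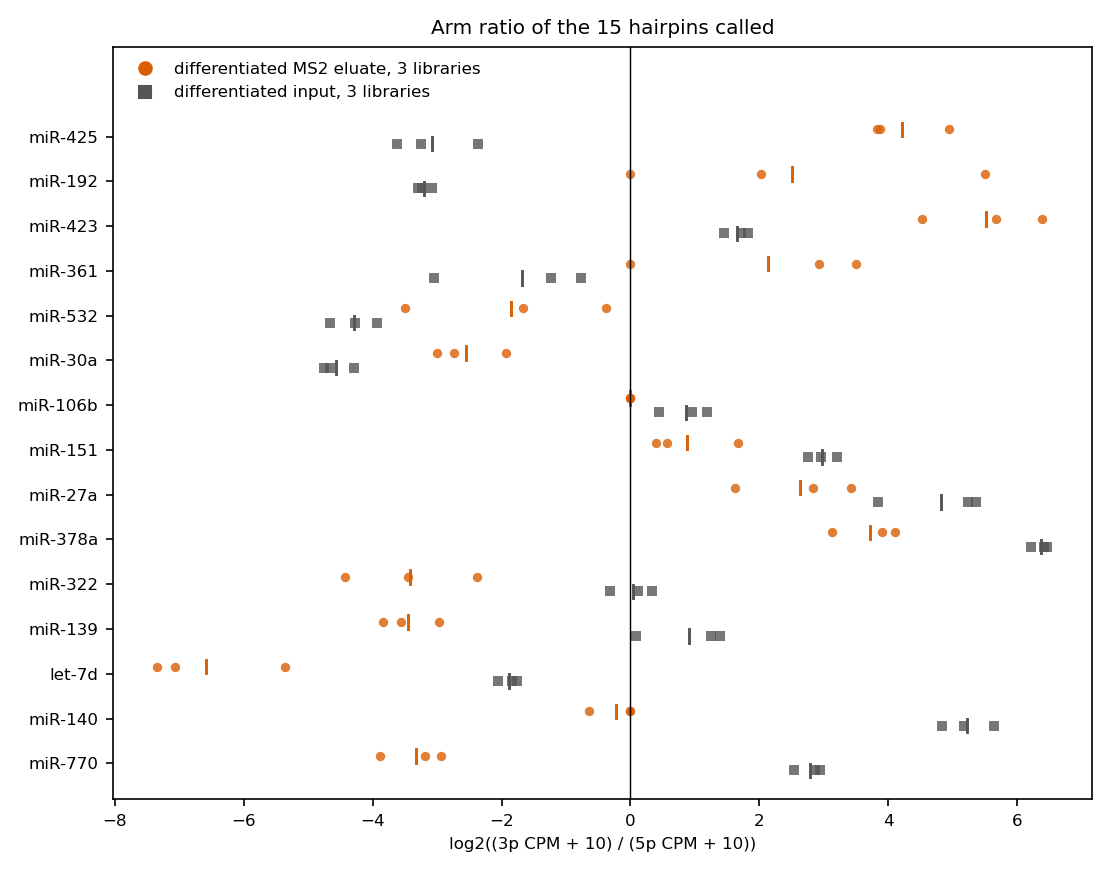
Ratio of 3p to 5p arm, as log2((3p CPM + 10)/(5p CPM + 10)), for the 15 hairpins called; each orange circle is 1 differentiated MS2 eluate (above) and each grey square 1 differentiated input (below), with means as bars. Eluates of miR-425, miR-192 and miR-423 lie to the right of their inputs, and those of miR-140, miR-770 and let-7d to the left.

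The higher and lower names differed in base composition. Of the 221 names, 188 had a sequence in RefSeq. Median GC content was 59.0% over 28 higher names, 47.6% over the lower names and 50% over all. The first base was U in 5 of 28 higher sequences (17.9%), against 54.3% of the lower and 45.7% of all distinct sequences. Among names with at least 10 eluate reads the first base was U in 5 of 27 higher (18.5%) and 28 of 41 lower names (68.3%), with GC medians of 57.1% and 45.5%. Spearman's rho between GC content and the difference was 0.25 over 188 names and 0.35 over the 94 with at least 10 eluate reads, where all names share the same 6 libraries. Single names depart from this: miR-615-3p begins with U, miR-690 has 45.5% GC, and miR-22-3p, miR-25-3p and miR-362-3p fell without a U at the first base.

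Seeds were compared among the 188 tested names with a RefSeq sequence, which leaves out some members of families. Of 22 seeds shared by 2 or more of these, all names were lower for 14 and all higher for 0. Over all 221 names tested, 62.4% were lower and 14.9% higher. Whether names of a seed move together beyond these shares was not tested. Names moved in both directions for 3 seeds, those of let-7, miR-221/222 and miR-3473. Seed GAGGUAG of let-7, shared by 10 tested names, had 1 higher and 8 lower.

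The same control bait was compared with input in undifferentiated cells, which share no library with the differentiated groups. Of 276 names tested for a difference between the states in the eluate-over-input contrast, 28 were higher in differentiated cells (10.1%) and 3 lower (1.09%), with a median of 0.68. The 3 lower names were miR-499-5p, miR-7667-3p and miR-664-3p, none of which had a read in the differentiated eluates. Of the 28 higher names, let-7e-3p, let-7f-1-3p, miR-7a-5p, miR-18a-5p, miR-31-3p, miR-92a-1-5p, miR-101b-3p, miR-129-5p and miR-222-5p also had no read there. These calls do not show more recovery in differentiated eluates, and their sizes depend on the pseudocount. This count rests on scaling: with library totals it was 10 and 5 (median 0.13), with TMM factors 11 and 7 (median -0.17), with RLE factors 10 and 8 (median -0.20), and with totals that leave out the 2 leading names 9 and 6 (median 0.25). Across 7 scalings and tests miR-199a-5p, miR-27a-5p and miR-3074-5p were higher in all and none was lower in all. With the totals that leave out the 2 leading names, miR-27a-5p was not called (limma adjusted p = 0.0504).

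The names that led the differentiated eluate were abundant in the undifferentiated one too. miR-615-3p had 226069, 232495 and 59521 CPM in differentiated eluates and 154347, 143625 and 165833 CPM in undifferentiated eluates. Its eluate-over-input difference was 9.75 in differentiated and 8.70 in undifferentiated cells (difference 1.04 ± 0.67, limma adjusted p = 0.336). For miR-423-3p the 2 values were 5.71 and 4.42 (1.29 ± 0.55, limma adjusted p = 0.165), and for miR-6244 1.83 and 1.20 (0.64 ± 0.91, limma adjusted p = 0.688). None of these 3 was called, which does not show that the states were alike.

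The contrast of miR-690 and miR-199a-5p was called different between the states. miR-690 had 2623, 2918 and 1706 CPM in differentiated eluates and 328, 202 and 171 CPM in undifferentiated ones, while its inputs ran from 47.0 to 71.0 and from 33.3 to 69.6 CPM (3.20 ± 0.58, limma adjusted p = 0.00461), a call that was not kept under all 7 scalings and tests. miR-199a-5p had 830, 755 and 921 CPM in differentiated eluates and 197, 131 and 149 CPM in undifferentiated ones, with inputs at 374 to 492 and 514 to 1050 CPM (2.96 ± 0.48, limma adjusted p = 0.00248). In both, eluates of the states did not overlap. miR-27a-5p differed mostly in its inputs: eluates had 33.2, 137 and 54.2 CPM in differentiated and 131, 23.7 and 21.3 CPM in undifferentiated cells, and inputs 47.7, 152 and 47.3 against 1312, 1962 and 2417 CPM (4.99 ± 0.98, limma adjusted p = 0.00836). miR-3074-5p lies opposite miR-24-3p on the other strand, and its 5 differentiated eluate reads against 0 undifferentiated ones could not be told apart from that name without the strand setting.

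The differentiated control was also set against the eluate of the MRTF-A 3′UTR bait from the same cells. This comparison shares the MS2 libraries with that against input, so the values stand side by side and are not independent. Of 162 names tested, 32 were higher with the MS2 control (19.8%) and 91 lower (56.2%), with a median of -2.59. With library totals the counts were 44 and 66 (median -1.26), and with totals that leave out the 2 leading names 65 and 49 (median 0.18).

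The largest differences in favour of the control were those of hsa-miR-6509-3p, miR-615-3p and miR-690. miR-615-3p had 226069, 232495 and 59521 CPM with the control, against 2250, 2442 and 2356 CPM with the bait (5.96 ± 0.55, limma adjusted p = 0.00013). miR-690 had 2623, 2918 and 1706 CPM, against 30.5, 93.3 and 61.7 CPM with the bait (5.14 ± 0.44, limma adjusted p = 9.56e-05). hsa-miR-6509-3p had 3686, 3571 and 298 CPM, against 0, 3.33 and 10.3 CPM (6.84 ± 1.05, limma adjusted p = 0.00138). In each, the lowest control library was above the highest bait library, but lack of overlap was a condition for naming them.

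miR-199a-3p and miR-199b-3p, not called against input, were higher than with the bait by 4.60 ± 0.20 and 4.41 ± 0.20, at 8188 ± 971 and 7255 ± 1061 CPM with the control and 331 ± 65.8 and 332 ± 51.8 CPM with the bait (SD, n = 3; limma adjusted p = 3.41e-06 each). miR-199a-5p, the other arm of miR-199a, went the other way, with 830, 755 and 921 CPM in the control, against 47124, 45393 and 44920 CPM with the bait (-5.76 ± 0.13, limma adjusted p = 3.88e-07). miR-3103-3p and miR-140-5p, both higher in the control than in input, were lower than with the bait (-5.11 ± 0.61 and -6.60 ± 0.19).

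The largest falls against the bait were those of let-7g-5p (-6.96 ± 0.43), miR-1a-3p (-6.63 ± 0.21), miR-296-5p, miR-140-5p and miR-34b-5p (-6.55 ± 0.76). miR-1a-3p had 4915, 6935 and 5443 CPM with the control, against 554751, 612195 and 537132 CPM with the bait (limma adjusted p = 1.09e-06). miR-296-5p had no read with the control and 978 ± 198 CPM with the bait, at least 10.3-fold lower. miR-133b-3p and miR-143-3p, both low against input, were not called against the bait (-0.02 ± 0.45 and -0.20 ± 0.16, limma adjusted p = 0.972 and 0.29). With totals that leave out the 2 leading names these turned to 2.89 and 2.75.

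The authors' deposited table of the same comparison called 165 names, 47 higher and 118 lower. Of these 165 names, 142 were tested here, and 141 were called in the same direction, with 0 called in the opposite direction. Matched calls were 28 of the 47 higher and 113 of the 118 lower names. Most unmatched names were thus higher ones, and nearly all unmatched names had not passed the filter here. Both sets of calls rest on the same libraries, so the match is no separate support.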

How the data were processed

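Small RNA was sequenced with 50 bp reads. Per the submitters' processing notes, the authors used edgeR 3.18.1, featureCounts 1.4.6, Bowtie2 2.0.13 and cutadapt 1.4.2 on GRCm38. Strand use, multi-mapping, filters and other settings: not given in the sources used here. Deposited values are a signal, CPM as normalised by the authors. The authors' deposited tables also give log2 fold changes and p-values. Raw counts had been assumed in planning; the values are not raw, so a log-scale test was used. Dividing each value by the worth of 1 read gave whole reads, within 0.01 read, for 100% of values. Names with enough recovered reads (filterByExpr of edgeR 4.0.16) were tested with limma 3.58.1 with a trend (R 4.3.3) on log2(CPM + 10), which understates the change of low names, on the libraries of the groups compared, with Benjamini-Hochberg adjustment at 0.05. The test was tested on simulated data. Alternatives were DESeq2 1.42.0, edgeR and voom on recovered reads, other scalings, filters and pseudocounts, left-out libraries and, chosen after seeing the data, the column suffix as a block. Tables and plots came from Python 3.11.15 with matplotlib 3.10.9, scipy 1.17.1, pandas 2.3.3 and numpy 2.4.6.

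Named miRNAs are the 15 largest rises and falls among called names without overlap whose higher group averaged 100 CPM or more, the 8 most abundant of each group, examples of each list, the 5 most changed hairpins in each direction, and the 5 largest of the other comparisons; the remaining names were chosen after their values were seen. The groups, lists and tests were chosen with earlier results of these data known. Counting intervals and floors of 3 reads cover counting error only, and reads without molecular identifiers are not independent molecules.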

Additional observations from a re-analysis of the deposited data

Results flagged for a closer look

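Among the names whose eluate-over-input contrast was called different between differentiated and undifferentiated cells (limma on log2(CPM + 10), a test of that difference), 7 met the rule for naming. It was higher in differentiated cells by 4.99 ± 0.98 for miR-27a-5p, 4.30 ± 1.03 for miR-3103-3p, 4.16 ± 0.50 for miR-129-5p, 3.76 ± 0.82 for miR-125a-3p and 3.73 ± 0.60 for miR-31-3p. It was lower by -4.32 ± 0.23 for miR-499-5p and by -3.22 ± 0.89 for miR-7667-3p.

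miR-129-5p, miR-31-3p and miR-499-5p had no MS2 read in either state, so their differences rest on the inputs and on the pseudocount. With edgeR on recovered reads, the adjusted p was 1.0 for each of these 3 and 0.14 for miR-7667-3p. The call on miR-7667-3p was lost when any of 9 of the 12 libraries was left out (limma adjusted p 0.0579 to 0.099). For miR-125a-3p the mean eluate levels were close, 62.7 CPM in differentiated and 63.7 CPM in undifferentiated cells, from 6 and 10 reads. Its mean input levels were 20.4 and 384 CPM, so its difference lies mostly in the inputs.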

How the results depend on the processing

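The column suffixes recur in every group, but the labels do not tie them to the replicate numbers. For that reason the suffix was not taken as a pairing in the main fit. Deviations of same-suffix eluate and input libraries correlated at 0.09, 0.05 and 0.29 for A, B and C over 221 names. Those of different suffixes ran from -0.25 to 0.19, with MS2 library C at -0.19 and -0.25 against inputs A and B. Whether the C libraries share a preparation was not tested. A fit with the suffix as a replicate block, chosen after seeing the data, gave 31 higher and 140 lower names against input, 27 and 4 between the states, 30 and 93 against the bait, and 7 and 8 arm ratios. Under it miR-199a-5p lost its call against input (limma adjusted p = 0.0615). With library totals that leave out miR-6244 and miR-615-3p, eluate against input gave 60 higher and 77 lower names; miR-6241 turned to 1.26, miR-3107-5p to 0.23, miR-486-5p to 0.13, miR-322-5p to 1.48 and miR-1a-3p to 1.41. Against the MRTF-A bait, the same totals gave 65 higher and 49 lower names, and turned miR-133b-3p to 2.89, miR-3107-5p to 0.70, miR-486-5p to 0.59, miR-22-3p to 1.92, miR-133a-3p to 0.087 and miR-143-3p to 2.75; plain library totals turned miR-22-3p to 0.40 and miR-143-3p to 1.24, and no filter gave 147 lower names. The cause was not tested.

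Between the states, the number higher was 43 with a pseudocount of 50, 15 without a filter, 10 with library totals, 11 with TMM, 10 with RLE, 9 with the reduced totals, 13 with edgeR and 18 to 32 with a library left out. The number lower was 7 with a pseudocount of 50, 10 with a filter of 10 reads, 5 with library totals, 7 with TMM, 8 with RLE, 6 with the reduced totals and 1 with edgeR. Arm ratios gave 3 higher with a pseudocount of 1, and 32 higher and 41 lower without a filter, where more hairpins were tested; a filter of 10 reads gave 16 lower.

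Against input, 1584 of 1693 alternative values of 85 named miRNAs kept direction and side of the threshold, 61 lost a call and 43 gained one. With 1 left-out library, miR-31-5p, miR-770-5p and miR-139-5p lost their calls most often, and miR-6244 against the bait lost its call without MS2 library A or B or MRTF-A library B or C. Between 15562 and 23433 reads per eluate limit every fall to a name with few reads.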
